A study of Mus musculus with 48 samples.

Results

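The collagen genes of the mouse cerebral cortex were followed from mid-gestation to 12 months of age in wild-type (WT) and Chd8 V986*/+ mice. They were taken as every gene of the deposited expression table whose symbol is Col, a number, a and a number, which gave 44 of the 24444 genes listed. The 48 samples came from male C57BL/6J mice, dissected cortex of 1 hemisphere each, with 6 samples per genotype from embryos of day 14.5 (E14.5) and as many from each of 3 later ages (1, 6 and 12 months). The study's text calls these 6 biological replicates, while the labels only number them, so p-values measure the spread between these samples. The V986* allele was made with CRISPR/Cas9 by placing tandem stop codons in Chd8, a chromatin remodeller gene, and the V986*/+ mice carry 1 such allele in every cell, descend from a single male founder backcrossed to C57BL/6J, and were compared with WT littermates that carry none. Values are variance-stabilised (VST) expression values on a log2 scale, so a difference of 1 is close to a 2-fold change for well-expressed genes. Since they are not scaled to gene length, levels were not compared between genes, other than for how near they lay to the floor of the table. The most frequent value of the table, 2.14 (15.7% of all values), was taken as a floor. The files do not tie it to a count of 0, and some values lie below it, down to 1.23.

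A collagen is a protein of several chains wound into a triple helix, and each gene encodes a single kind of chain. Fibrillar collagens form the cable-like fibrils of connective tissue, collagen IV forms the sheet of basement membranes around vessels and at the brain surface, and fibril-associated, transmembrane and other collagens decorate fibrils or sit in the cell membrane. In the brain, collagens are known above all from the meninges and the vessel wall, while a few, such as Col19a1 and Col25a1, are known from neurons.

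No collagen gene was at the floor of the table. In none of the 352 combinations of gene and group were all 6 samples within 0.5 of the floor, and all 44 genes passed the filter that was applied to every comparison, a mean at least 0.5 above the floor. Col10a1, a short-chain collagen known from growing cartilage, was the only member with single values near the floor, in 6 of its 48 samples, and its lowest value was 2.0. The lowest mean over all samples of any member was 3.80.

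Chd8 itself was lower in V986*/+ samples at each age without overlap between the groups, with a difference (V986*/+ minus WT) of -0.63, -0.67, -0.64 and -0.54 in order of age (limma, adjusted p = 0.0261, 3.01e-06, 1.07e-07 and 0.00261). Emx1, Tbr1 and Neurod6, markers of excitatory neurons and progenitors of the cerebral cortex, were far above the floor in all 48 samples, with values of 8.0 to 9.99, 11.48 to 13.14 and 10.74 to 13.58. The 17 markers of midbrain, hindbrain and spinal cord had a mean of 3.22 to 7.37 in the WT E14.5 samples and of 3.27 to 4.74 in V986*/+ at that age, with WT replicate 5 highest, so the E14.5 libraries differ in this list. Libraries of WT E14.5 replicates 1 and 6, V986*/+ E14.5 replicate 1 and WT 12-month replicate 6 lay farther from the rest of their group over all genes than the other libraries did, and results that change without these 4 are given with and without them.

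The main change below is a large fall or rise between E14.5 and 1 month. The stretch of genome before the start site of 4 genes that moved in this way is shown first. These are the 2 genes with the largest falls and the 2 with the largest rises in WT among members with a single RefSeq promoter entry and no annotated exon over it. Each run holds the 250 bases before the start site, read 5′ to 3′ on the strand of the gene and placed on build NCBIM37 (mm9), the build of the study's alignment. Capitals mark the letters of a TATA box (TATAAA) or of an E box of TWIST type (CATATG), searched on both strands beside the GC box (GGGCGG) and the CCAAT box (CCAAT).
Col3a1 (fell; chr1:45368133-45368382, plus strand): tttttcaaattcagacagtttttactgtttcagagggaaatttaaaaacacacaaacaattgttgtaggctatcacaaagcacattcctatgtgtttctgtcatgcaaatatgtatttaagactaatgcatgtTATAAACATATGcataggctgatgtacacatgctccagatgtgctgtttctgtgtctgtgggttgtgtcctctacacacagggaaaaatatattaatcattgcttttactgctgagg
Col6a3 (fell; chr1:92740549-92740798, minus strand): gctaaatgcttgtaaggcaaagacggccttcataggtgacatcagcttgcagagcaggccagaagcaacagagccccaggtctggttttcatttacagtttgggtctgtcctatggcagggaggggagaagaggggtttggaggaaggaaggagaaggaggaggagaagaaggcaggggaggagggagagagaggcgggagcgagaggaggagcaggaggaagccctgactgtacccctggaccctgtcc
Col24a1 (rose; chr3:144955186-144955435, plus strand): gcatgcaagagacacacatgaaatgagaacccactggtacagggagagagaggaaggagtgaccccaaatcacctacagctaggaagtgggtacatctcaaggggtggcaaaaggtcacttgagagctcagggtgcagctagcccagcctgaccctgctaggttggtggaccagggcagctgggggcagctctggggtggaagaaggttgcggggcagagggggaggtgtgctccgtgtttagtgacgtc
Col10a1 (rose; chr10:34109537-34109786, plus strand): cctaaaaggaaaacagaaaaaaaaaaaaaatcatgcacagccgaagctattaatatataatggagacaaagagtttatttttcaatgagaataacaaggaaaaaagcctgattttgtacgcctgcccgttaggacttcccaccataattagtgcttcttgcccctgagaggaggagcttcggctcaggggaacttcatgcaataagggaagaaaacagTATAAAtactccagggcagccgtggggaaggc

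In Col3a1, which encodes the chain of fibrillar collagen III and lies at chr1:45368383-45406551, a TATAAA began at position -117 and a CATATG at position -111 counted from the start site, side by side. In Col10a1 (chr10:34109787-34116891) a TATAAA began at position -32. None of the 4 motifs was found in the windows of Col6a3, a chain of the beaded-filament collagen VI (chr1:92663435-92740529), or of Col24a1, a minor fibrillar collagen (chr3:144955436-145214975), which says only that these letters are not in those 250 bases. RefSeq entries (build GRCm38.p6) matched 35 of the 44 genes with 38 windows. A GC box was in 22 of these 38, 57.9%, against 33% of the 32536 promoter windows of that length. A TATAAA was in 5 of 38 (13.2%, against 12.3%), a CCAAT in 13 (34.2%, against 33.8%) and a CATATG in 1, that of Col3a1 (2.63%, against 3.42%).

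Between E14.5 and 1 month, most collagen genes changed, and more of them fell than rose. In WT, 25 of 44 were lower at 1 month and 12 were higher. In V986*/+, 24 were lower and 13 higher (limma, adjusted p below 0.1 over all genes tested). The background was high at this step: 42.3% of all genes tested were lower and 43.4% higher in WT, and 42.4% and 43.7% in V986*/+, and the collagen shares were 56.8% lower and 27.3% higher in WT and 54.5% and 29.5% in V986*/+. The median difference of the collagen genes was -0.59 in WT and -0.69 in V986*/+, beside 0.02 and 0.02 for all genes. In these bulk samples, here and below, fewer cells of a type and less RNA per cell cannot be told apart. Of the 25 genes that fell in WT, 24 fell in V986*/+ as well, and Col9a3 did not pass there. All 12 that rose in WT also rose in V986*/+, which added Col8a1.

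**Figure D1:**
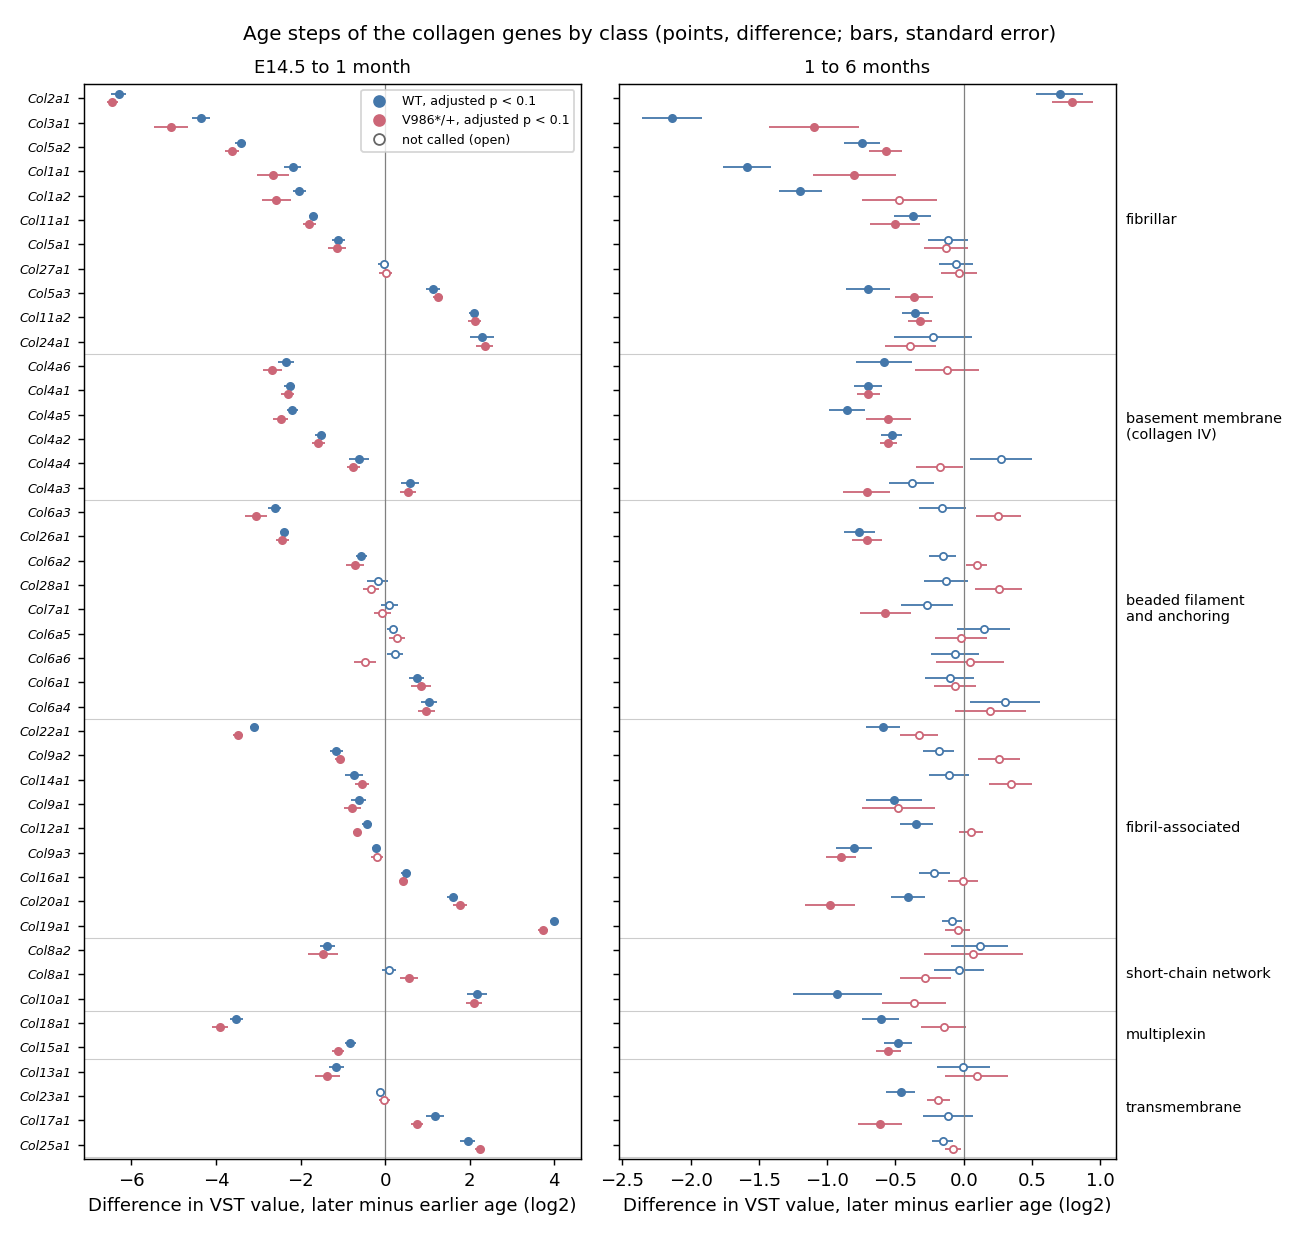
Difference in VST value between neighbouring ages (later minus earlier, log2) for each of the 44 collagen genes, grouped by class, in WT (blue) and V986*/+ (red). Points are differences from limma, bars are standard errors and open points did not pass an adjusted p of 0.1. Between E14.5 and 1 month Col2a1 and Col3a1 fell furthest and Col19a1 rose furthest, and between 1 and 6 months nearly all called points lie left of 0, with Col2a1 on the right.

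Col2a1, the chain of the main cartilage collagen, which is also made by early neural epithelium, fell furthest. Its lowest, median and highest values were 10.23, 10.88 and 11.04 in WT at E14.5 and 4.03, 4.38 and 5.09 at 1 month. The V986*/+ values were 10.30, 10.66 and 10.92 and 3.78, 4.24 and 4.42. The ages did not overlap in either genotype, and the difference was -6.31 ± 0.17 (adjusted p = 1.36e-14) in WT and -6.46 ± 0.13 (adjusted p = 1.88e-16) in V986*/+. Of the 8 cartilage and bone markers tested, 5 were higher at 1 month in WT and 6 in V986*/+ and none was lower (Acan, Matn1 and Sp7 among them in both), where 43.4% and 43.7% of all genes tested were higher. Their mean over 9 genes was 3.34 to 3.83 in WT at E14.5, with Bglap at the floor, and 4.86 to 5.03 at 1 month. Which cells carried these markers in the cortex samples was not tested, and neither was their part in the Col2a1 values.

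The chains of the connective-tissue fibrils followed. Col3a1 had values of 11.93, 12.27 and 12.68 in WT at E14.5 and 7.05, 8.16 and 8.42 at 1 month, a difference of -4.35 ± 0.21 (adjusted p = 1.18e-11). In V986*/+ the values were 10.74, 12.53 and 12.92 and 5.85, 7.31 and 8.12, a difference of -5.06 ± 0.39 (adjusted p = 3.66e-09), and both groups spread more widely than in WT. Col5a2, a chain of the fibril-nucleating collagen V, fell from a mean of 10.39 ± 0.26 (SD, n = 6) to 6.97 ± 0.23 in WT and from 10.44 ± 0.44 to 6.81 ± 0.22 in V986*/+. Its differences were -3.42 ± 0.12 and -3.62 ± 0.17 (limma, adjusted p = 4.14e-13 and 4.57e-12). The collagen I chains Col1a1 and Col1a2 fell by less, with differences of -2.19 and -2.03 in WT and -2.66 and -2.58 in V986*/+, and the groups of the 2 ages did not overlap. Of the 11 fibrillar genes, 7 fell, 3 rose and 1, Col27a1, was not called in either genotype.

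The fibrillar genes that rose were Col24a1, Col11a2 and Col5a3. Col11a2, a chain of collagen XI, went from 6.90, 7.23 and 7.28 to 9.01, 9.18 and 9.54 in WT and from 6.70, 7.10 and 7.74 to 8.96, 9.21 and 9.41 in V986*/+. Its partner in collagen XI, Col11a1, moved the other way, with -1.70 ± 0.11 in WT and -1.80 ± 0.15 in V986*/+, against 2.10 ± 0.11 and 2.12 ± 0.15 for Col11a2 (limma, all 4 adjusted p at or below 9.01e-09). Col24a1 spread widely at 1 month in WT, from 5.78 to 7.79, but all 6 samples were above the E14.5 values of 4.24 to 4.65 by 2.29 ± 0.28 (adjusted p = 1.61e-06), and in V986*/+ the difference was 2.36 ± 0.20 (adjusted p = 1.18e-08).

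In collagen IV, 5 of 6 chains fell and Col4a3 rose in both genotypes. Col4a1 and Col4a2, the chains of all basement membranes, differed by -2.26 ± 0.12 and -1.52 ± 0.13 in WT and by -2.31 ± 0.16 and -1.58 ± 0.15 in V986*/+. Col4a5 and Col4a6, which pair in a further network, differed by -2.20 and -2.34 in WT and -2.47 and -2.67 in V986*/+. Col4a3 and Col4a4, chains of the kidney filter network, moved apart, with 0.59 for Col4a3 and -0.61 for Col4a4 in WT. Col18a1 and Col15a1, the multiplexins of vascular and epithelial basement membranes, both fell. Col18a1 had values of 10.48, 10.79 and 11.40 in WT at E14.5 and 7.07, 7.35 and 7.71 at 1 month (-3.52 ± 0.16, adjusted p = 4.98e-12 with limma). The V986*/+ difference was -3.91 ± 0.18 (adjusted p = 4.77e-12), with no overlap of the ages.

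Among the 9 fibril-associated collagens the 2 largest differences pointed in opposite directions. Col19a1, a collagen known from interneurons and synapse formation, rose from 5.63, 5.98 and 6.15 to 9.72, 9.96 and 10.09 in WT. The V986*/+ values were 5.61, 6.01 and 6.48 and 9.69, 9.82 and 9.86, and the differences were 4.0 ± 0.09 (adjusted p = 1.92e-15) and 3.73 ± 0.12 (adjusted p = 5.15e-14). Col22a1, known from tissue junctions, fell without overlap from 9.05 ± 0.19 (SD, n = 6) to 5.96 ± 0.14 in WT and from 9.06 ± 0.19 to 5.59 ± 0.26 in V986*/+. Its differences were -3.09 ± 0.10 and -3.48 ± 0.12 (limma, adjusted p = 7.84e-14 and 1.21e-13). Col16a1, Col19a1 and Col20a1 rose in both genotypes.

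Of the 4 transmembrane collagens, Col25a1 and Col17a1 rose and Col13a1 fell in both genotypes. Col25a1, made by neurons and found in amyloid plaques, went from 7.82, 8.85 and 9.23 to 10.34, 10.67 and 10.88 in WT (1.95 ± 0.18, adjusted p = 4.81e-08 with limma) and differed by 2.24 ± 0.11 (adjusted p = 5.88e-12) in V986*/+. Among the short-chain collagens Col10a1 rose by 2.17 ± 0.23 in WT and 2.10 ± 0.20 in V986*/+ from E14.5 values near the floor (2.0 to 3.09 in WT), where the VST scale compresses differences. In the beaded-filament group, Col6a3 fell (-2.62 and -3.05 in WT and V986*/+) and so did Col6a2 (-0.56 and -0.72), while Col6a1, which joins them in collagen VI, rose (0.74 and 0.84).

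**Figure D2:**
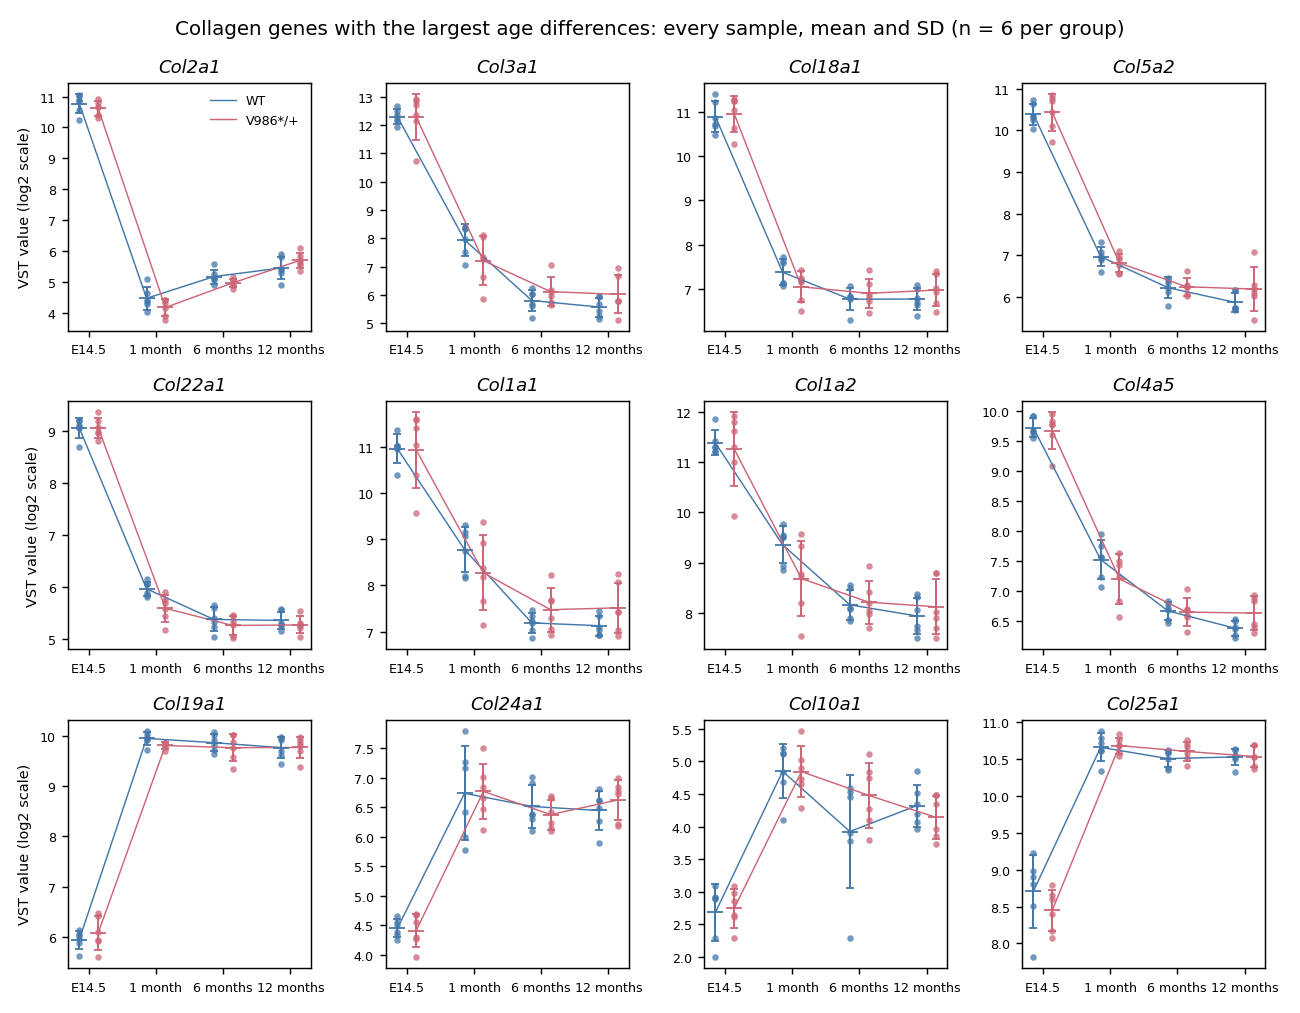
VST values (log2 scale) of 12 collagen genes with large age differences in every sample, by age, for WT (blue) and V986*/+ (red), with mean and SD (n = 6 per group). The vertical axes differ between panels and do not start at 0. The 8 genes in the upper rows fall between E14.5 and 1 month in both genotypes and the 4 in the bottom row rise.

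Markers of cell types that make collagen were counted over the same step, where 42.3% of all genes tested were lower and 43.4% higher in WT and 42.4% and 43.7% in V986*/+. Of the 16 meningeal and perivascular fibroblast markers, 12 were lower and 2 higher at 1 month in WT, and 13 and 1 in V986*/+. The mean over that list was 7.66 to 8.28 at E14.5 and 6.93 to 7.76 at 1 month in WT, and 7.0 to 8.28 and 5.95 to 7.52 in V986*/+. None of its genes was at the floor in any group. Of the 12 endothelial markers 4 were higher and 5 lower in WT, near the shares of all genes, and of the 11 mural markers 7 were higher and 4 lower. In V986*/+ the endothelial markers gave 4 higher and 8 lower and the mural markers 6 higher and 4 lower. Of the 8 choroid plexus markers 7 were lower and 1 higher at 1 month in WT, and 6 lower and 1 higher in V986*/+, with Kl the one that was higher. Their mean was 8.12 to 8.74 at E14.5 and 5.43 to 7.92 at 1 month in WT and 8.24 to 8.67 and 5.39 to 8.37 in V986*/+, and none was at the floor. In the V986*/+ 1-month samples, replicates 1 to 6 in order, this mean was 8.37, 7.52, 5.39, 6.78, 6.16 and 7.98. Col8a1 was 7.67, 7.57, 6.52, 6.92, 6.65 and 7.54 in the same samples, and Col8a2 was 7.12, 6.44, 4.06, 5.65, 6.24 and 6.58, so that replicate 3 was lowest and replicate 1 highest in all 3. Over the 8 groups, the sample with the highest list mean was also the highest in Col8a1 in 5 and in Col8a2 in 2, and the lowest was shared in 3 and 2. Other marker lists moved at this step as well. All 8 oligodendrocyte, 8 microglial and 6 astrocyte markers were higher at 1 month in both genotypes. Of the midbrain, hindbrain and spinal cord markers tested, 9 of 16 were lower in WT, and 5 of 10 were lower and 1 higher in V986*/+. Of 9 cerebral cortex markers 7 were lower and 2 higher in WT, and 7 and 1 in V986*/+. The part of all these cells in the collagen differences was not tested.

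The remaining genes counted with the beaded-filament and anchoring group were Col6a4, Col26a1, Col6a5, Col6a6, Col7a1 and Col28a1. Col26a1 was placed there for counting and is not itself a beaded-filament or anchoring collagen. Col6a4 rose (1.04 ± 0.19, limma, adjusted p = 8.25e-05 in WT) and Col26a1 fell (-2.38 ± 0.10, adjusted p = 2.08e-12 in WT). Col6a5, Col6a6, Col7a1 and Col28a1 passed in neither genotype. Col6a6, with a mean of 3.80 over all samples, had values at E14.5 and 1 month of 3.12, 3.94 and 4.05 and 3.67, 4.06 and 4.55 in WT, so the ages overlapped. Col5a1, the partner of Col5a2, fell by less than Col5a2 (-1.11 ± 0.15, adjusted p = 5.1e-06 in WT and -1.14 ± 0.21, adjusted p = 9.13e-05 in V986*/+ with limma). Col9a1, Col9a2, Col12a1 and Col14a1 of the fibril-associated class fell in both genotypes, with WT differences of -0.63, -1.15, -0.43 and -0.73. Col23a1, a transmembrane collagen, was not called (-0.12 and -0.02). Without the 4 libraries that stand apart, the counts over all 44 genes were 24 lower and 12 higher in WT and 24 and 14 in V986*/+.

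Between 1 and 6 months the collagen genes that changed fell, with 1 exception. In WT, 21 of 44 were lower and 1 was higher, where 12.3% of all genes tested were lower and 12.3% higher. In V986*/+, 16 were lower and 1 higher, where 12.8% of all genes were lower and 14% higher. These are 47.7% and 36.4% of the collagen genes. The gene that rose was Col2a1 in both genotypes. The V986*/+ count of higher genes was 2 with the replicate numbers as a block (Col14a1, 0.34 ± 0.13, adjusted p = 0.0947) and 1 to 3 with single libraries left out (Col14a1 without 1-month replicate 2 or 6-month replicate 3, and Col6a3 and Col9a2 without 6-month replicate 6). The median collagen difference was -0.31 in WT and -0.23 in V986*/+, beside 0.01 and 0.01 for all genes.

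The genes lower in both genotypes numbered 13, which is 61.9% of the WT list and 81.25% of the V986*/+ list. They were Col1a1, Col3a1, Col5a2, Col5a3, Col11a1 and Col11a2 of the fibrillar class, Col4a1, Col4a2 and Col4a5 of collagen IV, and Col9a3, Col15a1, Col20a1 and Col26a1. Col1a2, Col4a6, Col9a1, Col10a1, Col12a1, Col18a1, Col22a1 and Col23a1 passed in WT alone, and Col4a3, Col7a1 and Col17a1 in V986*/+ alone. For none of the 44 genes did the difference between the genotypes in this step pass its own test.

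Col3a1 fell furthest. Its values at 1 and 6 months were 7.05, 8.16 and 8.42 and 5.21, 5.87 and 6.25 in WT, a difference of -2.14 ± 0.22 (adjusted p = 6.39e-06) with no overlap. In V986*/+ they were 5.85, 7.31 and 8.12 and 5.65, 6.03 and 7.07, a difference of -1.09 ± 0.33 (adjusted p = 0.0267) with overlap. At 1 month, V986*/+ replicates 3 and 4, at 5.85 and 6.64, lay within the range of the 6-month values. Col1a1 had values of 8.16, 8.91 and 9.31 at 1 month and 6.86, 7.21 and 7.47 at 6 months in WT (-1.59 ± 0.18, adjusted p = 1.38e-05), and the ages did not overlap. In V986*/+ it differed by -0.80 ± 0.30 (adjusted p = 0.0758), a call that is lost without 1-month replicate 1, 2, 5 or 6 or 6-month replicate 3, 4 or 6, and in limma fits without the filter, without the trend or with robust variance (adjusted p from 0.104 to 0.173 over these fits). Col1a2 differed by -1.20 ± 0.16 (adjusted p = 6.32e-05) in WT and by -0.47 ± 0.28 (adjusted p = 0.26) in V986*/+, which did not pass. In the V986*/+ group at 1 month these 3 genes spread more widely than in WT, with SDs of 0.81, 0.74 and 0.87 for Col1a1, Col1a2 and Col3a1 against 0.50, 0.37 and 0.55.

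The collagen IV chains Col4a1 and Col4a2 fell by nearly equal amounts in the 2 genotypes. Col4a1 differed by -0.70 ± 0.10 in WT and -0.70 ± 0.08 in V986*/+ and Col4a2 by -0.53 ± 0.08 and -0.55 ± 0.06 (limma, adjusted p from 1.33e-05 to 0.000212). Col4a5 went from 7.53 ± 0.33 (SD, n = 6) to 6.67 ± 0.15 in WT, without overlap (-0.86 ± 0.13, adjusted p = 0.000259). Col9a3, a chain of the fibril-associated collagen IX, fell in both genotypes, by -0.80 ± 0.13 in WT and -0.90 ± 0.11 in V986*/+, while Col9a2 of the same trimer was not called (-0.18 and 0.26). Col20a1 fell from 5.28, 6.08 and 6.41 to 4.61, 4.95 and 5.47 in V986*/+ (-0.98 ± 0.18, adjusted p = 0.00131) and differed by -0.41 ± 0.12 (adjusted p = 0.0314) in WT. Col4a3 differed by -0.71 ± 0.17 (adjusted p = 0.00872) in V986*/+ and -0.38 ± 0.16 (adjusted p = 0.123) in WT.

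Col10a1 differed by -0.93 ± 0.33 (adjusted p = 0.0605) in WT at this step, with 1 of 6 samples at 6 months near the floor at 2.28 and the others from 3.77 to 4.59. Without that sample, replicate 5, the difference was -0.60 ± 0.22 (adjusted p = 0.0827). Its call was lost without the filter, without the trend and without 1-month replicate 1, 5 or 6 or 6-month replicate 6 (limma, adjusted p from 0.107 to 0.125 over these fits). Col2a1 rose from 4.03, 4.38 and 5.09 to 4.90, 5.11 and 5.58 in WT (0.70 ± 0.17, adjusted p = 0.00981), with 4 of the 6 later samples above all earlier ones, and from 3.78, 4.24 and 4.42 to 4.77, 4.96 and 5.16 in V986*/+, where the ages did not overlap (0.80 ± 0.15, adjusted p = 0.00148).

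Of the 16 fibroblast markers, 4 were lower at 6 months than at 1 month and none higher in WT (Igf2, Foxd1, Foxc2 and Slc47a1), while 3 were higher and none lower in V986*/+ (Foxd1, Slc22a6 and Slc6a13), where 12.3% of all genes were lower in WT and 14% higher in V986*/+. The mean over the list was 6.91 to 7.37 in WT and 6.85 to 7.91 in V986*/+ at 6 months. Within groups, a sample's deviation in that mean followed its deviation in Col1a2 (r = 0.94), Col3a1 (r = 0.91), Col1a1 (r = 0.89) and Col4a5 (r = 0.83) over 48 samples, and less so in Col4a1 (r = 0.56), Col2a1 (r = 0.10) and Col9a3 (r = -0.02). These r values describe libraries that share their RNA and depth and carry no test. V986*/+ replicate 3 at 1 month was lowest of its group in the list mean, at 5.95, as it was in Col1a1, Col1a2 and Col3a1. Markers of other cells were also lower at 6 months in WT, where 12.3% of all genes were. These were 5 of 12 endothelial markers (1 higher), 3 of 11 mural, 8 of 8 oligodendrocyte, 5 of 8 microglial and 4 of 6 astrocyte markers. In V986*/+ they were 1 of 12 (1 higher), 1 of 11 (1 higher), 6 of 8, 1 of 8 and 1 of 6 in the same order, which apart from the oligodendrocyte markers is near the 12.8% of all genes that were lower. The part of these cells and of fibroblasts in the fall of the collagen genes was not tested.

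Between 6 and 12 months few collagen genes passed. In WT none of 44 did, where 0% of all genes tested were higher and 0.00579% lower (limma). Of the 44, 9 had an unadjusted limma p below 0.05, beside 6.75% of all genes. The median collagen difference was -0.13 in WT (34 of 44 lower) and 0.07 in V986*/+ (29 higher), beside -0.0096 and -0.0021 for all genes. For the difference of this step between the genotypes it was 0.19 (36 positive), and none passed. These counts are a description, and WT 12-month replicate 6, which stands apart, was lowest of its group in 20 of the 44. In V986*/+, 1 rose and none fell, where 1.07% of all genes were higher and 2.36% lower. That gene was Col2a1, which went from 4.77, 4.96 and 5.16 to 5.36, 5.66 and 6.08 with no overlap (0.73 ± 0.13, adjusted p = 0.0158). In WT it went from 4.90, 5.11 and 5.58 to 4.91, 5.41 and 5.89 (0.28 ± 0.17, adjusted p = 0.724), and the difference between the genotypes did not pass (0.45 ± 0.22, adjusted p = 0.576). After its large fall before 1 month Col2a1 was higher at each later age in V986*/+, and stayed far below its E14.5 level.

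Col19a1 and Col25a1, which rose before 1 month, did not pass at a later step in either genotype. Col19a1 had group means from 9.76 to 9.94 over the 6 groups of 1, 6 and 12 months, and Col25a1 from 10.51 to 10.68. Col3a1, in contrast, had its lowest means at 6 and 12 months, 5.81 ± 0.37 and 5.58 ± 0.34 (SD, n = 6) in WT and 6.12 ± 0.50 and 6.03 ± 0.67 in V986*/+.

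The genotypes were compared at each age to ask whether loss of 1 Chd8 allele changed collagen expression. No collagen gene passed at any age, where 0.00593%, 0.139%, 0.0927% and 0.0463% of all genes tested passed in order of age (limma, adjusted p below 0.1). The study's own test, DESeq2 with batch in the model, did call collagens at some age, among them those of its clusters named below. The lack of a call here therefore does not show that no collagen gene differed. In none of the 44 genes did the 6 V986*/+ and 6 WT samples separate without overlap at any age, where 0.261%, 0.825%, 0.527% and 0.868% of all genes did. With an unadjusted p below 0.05 there were 3, 8, 4 and 8 collagen genes at these ages, beside 4.56%, 8.8%, 7.59% and 11.6% of all genes.

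At E14.5 the 3 genes with an unadjusted p below 0.05 were Col9a2, Col8a1 and Col17a1. Col8a1, a chain of the short-chain collagen of vessel walls, differed by -0.38 ± 0.17 (adjusted p = 0.982) and Col17a1, a transmembrane collagen of epithelial anchoring, by 0.41 ± 0.18 (adjusted p = 0.982). At 6 months the 4 genes were Col17a1 (-0.52 ± 0.17, adjusted p = 0.444), Col20a1 (-0.48 ± 0.15, adjusted p = 0.414), Col6a6 (-0.46 ± 0.20, adjusted p = 0.62) and Col14a1 (0.39 ± 0.13, adjusted p = 0.451). Col17a1 had values of 4.26, 4.53 and 4.87 in WT and 3.45, 4.12 and 4.30 in V986*/+ at 6 months, and 3.01, 3.53 and 4.0 and 3.57, 3.94 and 4.10 at E14.5, so it was on the higher side in V986*/+ at E14.5 and on the lower side at 6 months, with overlap at both ages.

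The median collagen difference (V986*/+ minus WT) was -0.03, -0.12, -0.01 and 0.23 at the successive ages, where the median of all genes was 0.00 at each age. At 1 month 33 of 44 genes were lower in V986*/+ and at 12 months 36 were higher, with all 8 genes of unadjusted p below 0.05 on the higher side at 12 months and on the lower side at 1 month. Members share libraries and cell sources, so these counts are a description. WT 12-month replicate 6, one of the libraries that stand apart, was the lowest WT sample in 20 of the 44 genes at that age, and without it the median difference was 0.13, with 32 of 44 higher in V986*/+. With each of the 12 libraries of an age left out in turn, 31 to 37 genes were higher at 12 months and 28 to 36 lower at 1 month, where the median was -0.077 without V986*/+ replicate 4. The sign of the median was not stable at the other ages, where it ran from -0.10 (without V986*/+ replicate 3) to 0.064 (without V986*/+ replicate 2, the lowest of its group in 21 of 44 genes) at E14.5 and from -0.051 (without V986*/+ replicate 2) to 0.0096 (without WT replicate 3) at 6 months. At 1 month the lowest differences were those of Col3a1 (-0.73 ± 0.33, adjusted p = 0.545), Col1a2 (-0.67 ± 0.26, adjusted p = 0.47) and Col6a6 (-0.57 ± 0.23, adjusted p = 0.486), none of which passed. V986*/+ replicate 3 was the lowest sample of its group in Col3a1 (5.85) and Col1a2 (7.54), so this library weighs on both differences. At 12 months the highest were Col27a1, Col6a1 and Col11a2. Col6a1, a chain of the pericellular collagen VI, had values of 9.05, 9.44 and 9.74 in WT and 9.10, 10.04 and 10.25 in V986*/+, and it was 0.52 ± 0.16 (adjusted p = 0.27) with all samples and 0.68 ± 0.11 (adjusted p = 0.0524, with 0.0637% of all genes called) without V986*/+ replicate 1. The fibroblast list had median differences of -0.02, -0.48, 0.19 and 0.22 at the successive ages (15 of its 16 genes tested at E14.5) and the choroid plexus list of 0.03, 0.55, -0.51 and -0.26. At E14.5 the 17 midbrain, hindbrain and spinal cord markers had a median of -1.11 (from -2.17 to -0.24). The median of the 9 cerebral cortex markers was 0.36 at that age (from 0.17 to 0.38). No gene of these lists was called, and their part in the collagen values was not tested.

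**Figure D3:**
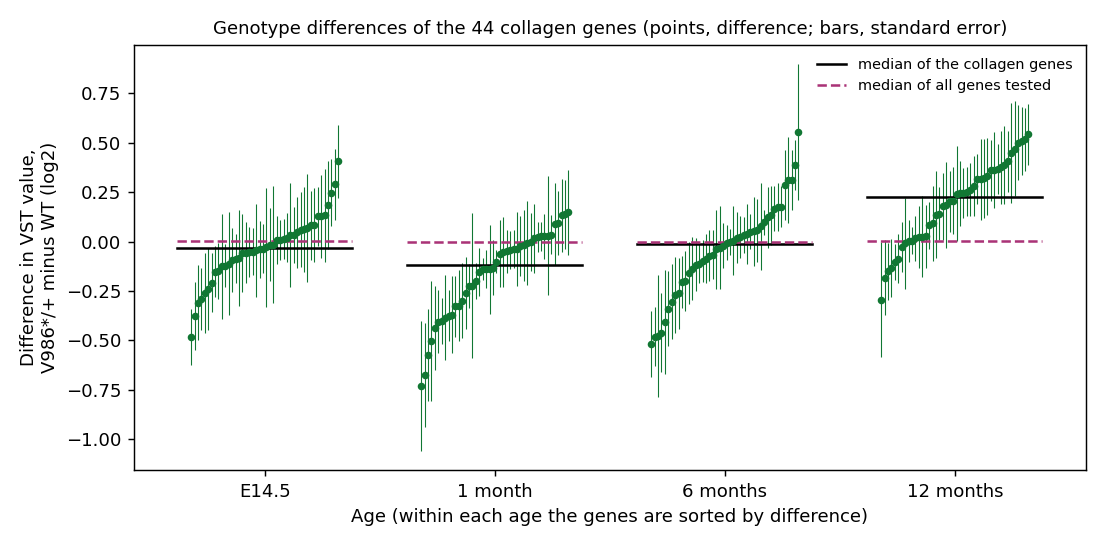
Difference in VST value between V986*/+ and WT (log2) of the 44 collagen genes at each age, sorted within an age, with standard errors. Black lines are medians of the collagen genes and dashed lines medians of all genes tested. The collagen median lies below that of all genes at 1 month (-0.12) and above it at 12 months (0.23), and no single gene passed an adjusted p of 0.1.

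The study placed 4 collagens, Col9a2, Col11a2, Col12a1 and Col27a1, in its gene clusters. It built the clusters from genes that its own test called between the genotypes at some age (DESeq2 with batch in the model, adjusted p below 0.1). These 4 collagens were thus chosen on the same samples and their differences are not independent evidence. The limma fits of VST values used here are a different test from that of the study. At 12 months all 4 had higher means in V986*/+. Col27a1, a fibrillar collagen, had values of 6.02, 6.88 and 6.98 in WT and 6.95, 7.21 and 7.51 in V986*/+, with 5 of 6 V986*/+ samples above all WT samples. Its difference was 0.54 ± 0.15 (adjusted p = 0.235), and 0.41 ± 0.12 (adjusted p = 0.304) without WT replicate 6, its lowest sample. Col12a1, a fibril-associated collagen, had 7.76, 8.05 and 8.18 in WT and 7.90, 8.38 and 8.75 in V986*/+ (0.37 ± 0.13, adjusted p = 0.294), again with 5 of 6 samples above all WT samples. Col11a2 had 7.67, 8.54 and 8.99 and 8.83, 8.96 and 9.29 (0.51 ± 0.17, adjusted p = 0.292), where the lowest WT value is that of replicate 6, and 0.34 ± 0.11 (adjusted p = 0.348) without that sample. In a single fit of all 48 samples, Col27a1 (adjusted p = 0.0466) and Col11a2 (adjusted p = 0.073) passed at 12 months, where 3.01% of all genes did.

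Col9a2, a chain of collagen IX, had a lower mean in V986*/+ at E14.5 and 1 month and a higher one at 12 months, and no difference passed with all samples. At E14.5 its values were 7.71, 8.37 and 8.61 in WT and 7.53, 7.86 and 8.08 in V986*/+ (-0.48 ± 0.14, adjusted p = 0.982). The midbrain, hindbrain and spinal cord markers had a median difference of -1.11 at that age and the cerebral cortex markers of 0.36, none called. WT replicate 5 was highest and WT replicate 6 lowest both in the mean of the former markers and in Col9a2. The part of these markers was not tested. At 1 month the Col9a2 values were 6.76, 7.15 and 7.49 and 6.54, 6.70 and 7.0 (-0.40 ± 0.12, adjusted p = 0.318), with 4 of 6 V986*/+ samples below all WT samples. At 6 months the groups overlapped (0.04 ± 0.15, adjusted p = 0.979). At 12 months they were 6.50, 6.77 and 6.88 and 6.57, 7.07 and 7.54 (0.36 ± 0.15, adjusted p = 0.385), with 4 of 6 V986*/+ samples above all WT samples. Without the 4 libraries that stand apart, Col9a2 passed at E14.5 with a difference of -0.66 ± 0.11 (adjusted p = 0.0325), and Col25a1 passed as well with -0.47 ± 0.13 (adjusted p = 0.0866), where 5.58% of all genes did. In that fit only 4 WT and 5 V986*/+ samples remain, and the WT samples that remain are those with higher midbrain, hindbrain and spinal cord markers (list means of 4.54 to 7.37, against 3.22 and 3.83 in those left out), whose part was not tested.

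**Figure D4:**
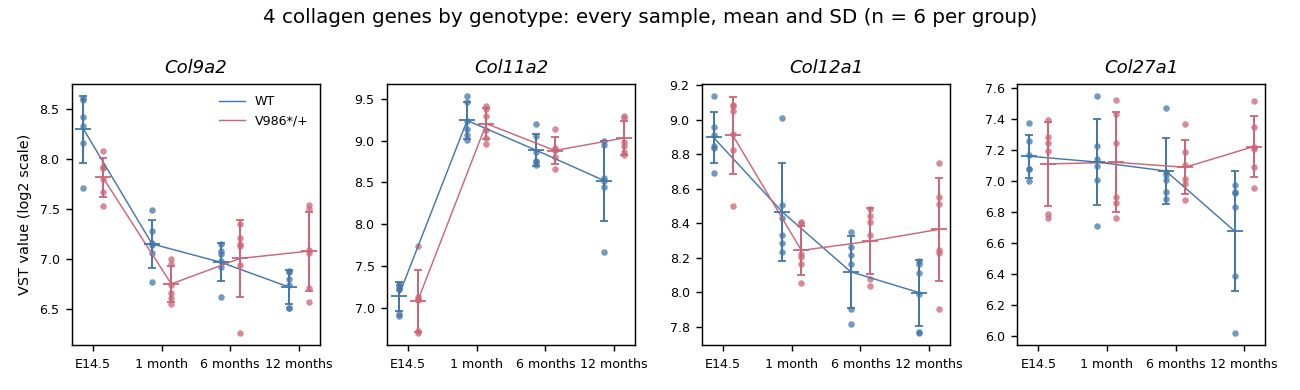
VST values (log2 scale) of Col9a2, Col11a2, Col12a1 and Col27a1 in every sample by age, for WT (blue) and V986*/+ (red), with mean and SD (n = 6 per group). The vertical axes differ between panels and do not start at 0. The V986*/+ mean of Col9a2 lies below WT at E14.5 and 1 month and above it at 12 months, and at 12 months all 4 genes have the higher mean in V986*/+.

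Whether an age step differed between the genotypes was tested directly as an interaction in 1 fit of all samples. No collagen gene passed for E14.5 to 1 month, 1 to 6 months, 6 to 12 months or E14.5 to 12 months, where 0%, 0%, 0.0578% and 0.0635% of all genes tested did (limma). The counts with an unadjusted p below 0.05 were 2, 4, 8 and 6 of 44, beside 4.6%, 3.36%, 8.68% and 11.5% of all genes. The smallest adjusted p was that of Col9a2 from E14.5 to 12 months, 0.84 ± 0.22 (adjusted p = 0.142). It passed without V986*/+ 12-month replicate 1 or 5, V986*/+ E14.5 replicate 3, WT 12-month replicate 3 or 4, or WT E14.5 replicate 1 or 6 (differences of 0.80 to 0.96). Without WT E14.5 replicate 6 it was 0.96 ± 0.21 (adjusted p = 0.0106, with 4.01% of all genes called), and Col25a1 passed too (0.44 ± 0.14, adjusted p = 0.0902). It also passed without the 4 libraries that stand apart (1.04 ± 0.23, adjusted p = 0.00651, with 6.03% of all genes called). Col25a1 passed in that fit too (0.44 ± 0.14, adjusted p = 0.0578), and for E14.5 to 1 month (0.50 ± 0.13, adjusted p = 0.0348, with 3.2% of all genes called). For Col3a1 the fall from 1 to 6 months was smaller in V986*/+, by 1.04 ± 0.45 (adjusted p = 1).

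Chains that share a trimer or lie next to each other in the genome were compared within groups, as the deviations of the 48 samples from their 8 group means, with 100000 permutations within groups for each of 9 pairs. The collagen I chains Col1a1 and Col1a2 moved together most closely (r = 0.95, rho = 0.93, permutation p = 1e-05 for both, the smallest that the permutations can give, adjusted over the 9 pairs to 2.25e-05 and 3e-05). Without the 2 samples farthest from the median in Col1a1, r was 0.92, and it was 0.95 within replicates 1 to 3 and 0.95 within replicates 4 to 6. Col4a1 and Col4a2 gave r = 0.91, rho = 0.90 with the same p-values, and r was 0.86 without the 2 farthest samples and 0.91 and 0.92 within the replicate sets. These genes lie head to head on chromosome 8, Col4a1 at chr8:11198423-11312826 on the minus strand and Col4a2 at chr8:11312805-11449287 on the plus strand, and their annotated starts overlap by 22 bases (GENCODE vM1, mm9). For comparison, the median r over all 946 pairs of collagen genes was 0.15, with quartiles of -0.03 and 0.35. It was 0.24 over the 55 fibrillar pairs (quartiles 0.08 and 0.44) and 0.26 over the 15 collagen IV pairs (0.15 and 0.64). The permutations compare each r with no relation between the 2 genes, not with these other pairs.

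Not all partners were so close. Col4a5 and Col4a6, with starts 1308 bases apart on chromosome X, gave r = 0.77, rho = 0.76 (permutation p = 1e-05 and 1e-05, adjusted 2.25e-05 and 3e-05), with r of 0.73 without the 2 farthest samples and 0.80 and 0.66 within the sets. Col6a1 and Col6a2 gave r = 0.77, rho = 0.59 (permutation p = 1e-05 and 6e-05, adjusted 2.25e-05 and 0.000135), with r of 0.61 without the 2 farthest samples and 0.84 and 0.72 within the sets. Col8a1 and Col8a2 gave r = 0.56, rho = 0.54 (permutation p = 0.00028 and 0.00043, adjusted 0.000504 and 0.000774), with r of 0.45 without the 2 farthest samples and 0.72 and 0.42 within the sets, the latter with permutation p = 0.106. Values were lower for Col4a3 and Col4a4, whose starts are 71 bases apart on chromosome 1, at r = 0.37, rho = 0.37 (permutation p = 0.0193 and 0.0205, adjusted 0.0248 and 0.0263), with r of 0.38 without the 2 farthest samples and 0.49 and 0.45 within the sets, the latter with permutation p = 0.0877. Col5a1 and Col5a2 gave r = 0.38, rho = 0.39 (permutation p = 0.0161 and 0.0151, adjusted 0.0242 and 0.0226), with r of 0.37 without the 2 farthest samples and 0.25 and 0.44 within the sets, where the permutation p of r was 0.323 and 0.0905, both above the threshold of 0.05 used for correlations. The chains of collagen IX did not pass. Col9a1 and Col9a2 gave r = 0.21, rho = 0.24 (permutation p = 0.214 and 0.137, adjusted 0.24 and 0.155), with r of 0.24 without the 2 farthest samples and 0.39 and 0.37 within the sets, and Col9a2 and Col9a3 gave r = -0.02, rho = -0.01 (permutation p = 0.874 and 0.963, adjusted 0.874 and 0.963), with r of -0.02 without the 2 farthest samples and -0.13 and 0.01 within the sets. Both genes of a pair are read in the same library and share its depth and dissection, whose part in these values was not tested.

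**Figure D5:**
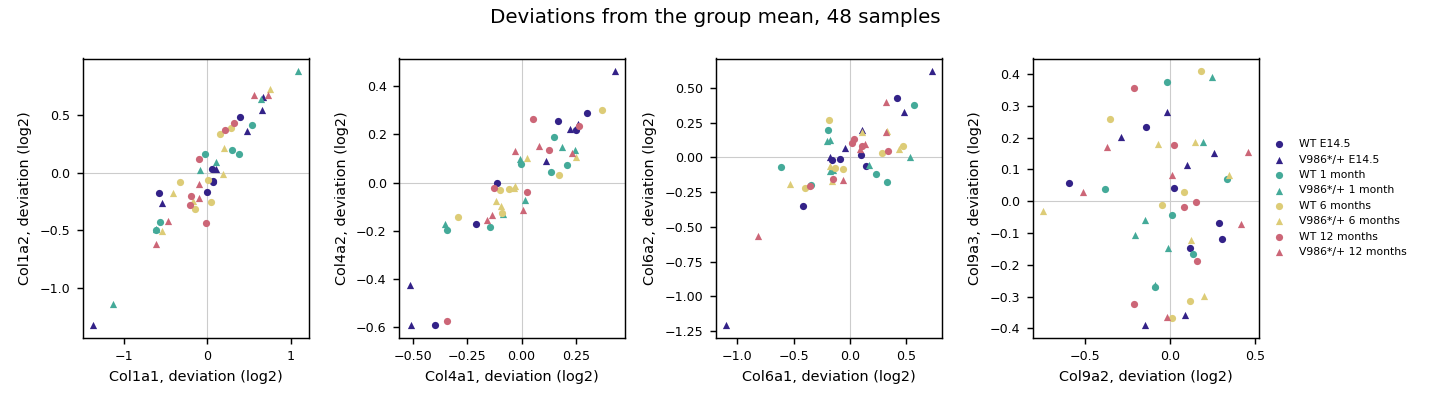
Deviation of each of the 48 samples from its group mean (VST, log2) for 4 pairs of collagen chains, coloured by age, with circles for WT and triangles for V986*/+. Points of Col1a1 and Col1a2 (r = 0.95) and of Col4a1 and Col4a2 (r = 0.91) lie along a diagonal, those of Col6a1 and Col6a2 (r = 0.77) more loosely, and those of Col9a2 and Col9a3 (r = -0.02) do not.

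Genes that process collagen were counted in the same fits. The shares of all genes to read them against were 42.3% lower and 43.4% higher in WT and 42.4% and 43.7% in V986*/+ at the first step, and 12.3% and 12.3% in WT and 12.8% and 14% in V986*/+ at the second. Between 6 and 12 months they were 0.00579% lower and 0% higher in WT and 2.36% and 1.07% in V986*/+. Of 14 prolyl and lysyl hydroxylases, glycosyltransferases and their partners, which modify the chains before they fold, 9 fell and 5 rose between E14.5 and 1 month in WT, and 8 and 5 in V986*/+. Between 1 and 6 months 3 fell and 1 rose in WT and 5 fell in V986*/+, Plod1 among both. Of 6 folding and secretion genes, 3 fell and 2 rose at the first step in both genotypes. Serpinh1, the collagen-specific chaperone, fell at both steps, with differences of -2.60 ± 0.09 (adjusted p = 4.05e-13) and -0.84 ± 0.10 (adjusted p = 3.57e-05) in WT and -2.69 ± 0.15 (adjusted p = 3.64e-11) and -0.63 ± 0.13 (adjusted p = 0.00213) in V986*/+. Between 6 and 12 months it differed by -0.44 ± 0.12 (adjusted p = 0.0788) in V986*/+ and by 0.13 (adjusted p = 0.819) in WT. P4ha1, a subunit of prolyl hydroxylase, differed by -0.51 ± 0.06 (adjusted p = 0.00255) and 0.18 (adjusted p = 0.778) at that step, and no other gene of the 5 lists passed there. The difference of this step between the genotypes did not pass for either, with -0.57 ± 0.21 (adjusted p = 0.417) for Serpinh1 and -0.69 ± 0.19 (adjusted p = 0.244) for P4ha1. Of 14 genes of propeptide removal and cross-linking, 7 fell and 3 rose at the first step in both genotypes, and 6 fell and 1 rose in WT and 4 fell in V986*/+ at the second. Lox, a cross-linking enzyme, differed by -3.0 ± 0.17 (adjusted p = 7.41e-11) and -1.0 ± 0.15 (adjusted p = 0.000275) in WT, and by -3.61 ± 0.33 (adjusted p = 2.73e-08) and -0.15 ± 0.29 (adjusted p = 0.761) in V986*/+, and the second step did not pass as a difference between the genotypes (0.85 ± 0.40, adjusted p = 1).

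Of 10 collagen receptors tested, 7 fell and 2 rose between E14.5 and 1 month in WT, and 7 and 1 in V986*/+, beside 42.3% lower and 43.4% higher of all genes in WT and 42.4% and 43.7% in V986*/+. Adgrg1, the receptor for collagen III on neural progenitors, differed by -1.84 ± 0.11 (adjusted p = 1.68e-10) in WT and -1.86 ± 0.11 (adjusted p = 1.09e-10) in V986*/+, and Ddr1, a collagen-binding kinase, by -1.44 ± 0.09 (adjusted p = 4.65e-10) and -1.51 ± 0.09 (adjusted p = 8.77e-11). Between 1 and 6 months 3 receptors fell in WT, and 2 fell and 1 rose in V986*/+, beside 12.3% of all genes lower in WT and 12.8% lower and 14% higher in V986*/+. Of 11 collagen-degrading proteases and protease inhibitors tested, 6 fell and 4 rose at the first step in WT and 6 and 5 in V986*/+, near the shares of all genes. Timp4, an inhibitor of matrix proteases, differed by 4.23 ± 0.31 (adjusted p = 2.31e-09) in WT and 4.74 ± 0.17 (adjusted p = 1.71e-13) in V986*/+, and Mmp2, a gelatinase, differed by -2.13 ± 0.11 (adjusted p = 2.11e-11) and -2.24 ± 0.19 (adjusted p = 9.77e-09). At the second step 4 fell in WT and 2 in V986*/+ and none rose. None of the genes tested in these 5 lists passed in the genotype comparison at any age, where 0.00593%, 0.139%, 0.0927% and 0.0463% of all genes did in order of age.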

How the data were processed

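Cortex RNA of the 48 samples was sequenced from poly(A) libraries; the labels name a TruSeq kit and the study's methods a stranded KAPA kit. Per the labels and the study's methods, the authors aligned reads to mm9 with STAR 2.5.2b, quantified transcripts with Salmon 0.11.3 and used DESeq2 with batch in the model (the submitters' processing notes list 1.22.2 as the version of DESeq). The deposited values are variance-stabilised expression on a log2 scale for 24444 genes. Over all groups pooled, replicates 1 to 3 and 4 to 6 have the same mean in each gene (largest gap 3.38e-14), so no shift common to all groups is left between the 2 sets. Within a group the sets can still differ. In WT at 1 month Col1a1 was 9.07 to 9.31 in replicates 1 to 3 and 8.16 to 8.75 in replicates 4 to 6. In V986*/+ at that age the sets overlapped (7.14 to 9.37 and 7.65 to 8.38). The main fits had no term for the set. No counts were used, so the depth per gene is unknown and no counting interval is given.

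Genes with a mean at least 0.5 above the floor (2.14) in the samples compared were fitted with limma 3.58.1 (intensity trend, R 4.3.3), with Benjamini-Hochberg adjustment over all genes tested and the study's threshold, adjusted p below 0.1. Each genotype comparison and age step had a fit of its own 12 samples, and differences between steps came from 1 fit of 48. The fit was tested on simulated data. Group values are lowest, median and highest of 6, errors of differences are standard errors, and correlations used 100000 two-sided permutations within groups and a threshold of 0.05. Genes given by sample were those called between genotypes, the up to 5 largest rises and falls called in each age step of each genotype, and the 4 collagens of the study's clusters; chain partners and others were named after their values were seen. The members and lists were chosen with earlier results of these data known. Alternatives were the filter, the threshold, the trend, robust variance, quantile normalization, centring on the median gene, the set of replicates as a covariate, a fit of all samples, the replicate block, other margins for the floor, correlations within sample subsets, each library left out and, added after seeing the data, the 4 libraries that stand apart left out.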

Additional observations from a re-analysis of the deposited data

Results flagged for a closer look

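In each group of 6 samples, the named collagen genes were searched for a sample whose gap to its nearest neighbour was, as a share of the range, above Dixon's critical value for 6 samples. This held in 7 of 152 combinations of the 19 named genes and 8 groups. Chance gives about 1 in 20, so the count is near that rate and the samples below are listed as a description. Col3a1 was lowest in V986*/+ E14.5 replicate 2 at 10.74, where the others had 12.13 to 12.92, and the mean of the fibroblast markers was lowest in the same library (7.0, where the other V986*/+ E14.5 libraries had 7.98 to 8.28). Col3a1 was highest in V986*/+ 6-month replicate 2 at 7.07, against 5.65 to 6.17, and this library also had the highest fibroblast mean of its group (7.91, where the others had 6.85 to 7.32). Col1a2 was highest in WT E14.5 replicate 4 at 11.86, against 11.20 to 11.42, again the library with the highest fibroblast mean of its group (8.28). The part of fibroblasts in these values was not tested. Col12a1 in WT 1-month replicate 1 was 9.01, where the others lay between 8.23 and 8.5. Col27a1 in WT 6-month replicate 3 was 7.47, against 6.88 to 7.06. Col10a1 in WT 6-month replicate 5 was 2.28, near the floor, against 3.77 to 4.59. Col22a1 in WT E14.5 replicate 1, a library that stands apart over all genes, was 8.69, against 9.05 to 9.20.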

How the results depend on the processing

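No called result changed sign. Some genotype differences near 0 that were not called did, and stayed uncalled. With single libraries left out they ranged from -0.19 to 0.021 (Col11a2), -0.029 to 0.094 (Col12a1) and -0.11 to 0.020 (Col27a1) at E14.5, from -0.084 to 0.021 (Col11a2) and -0.084 to 0.084 (Col27a1) at 1 month, and from -0.032 to 0.19 (Col9a2), -0.058 to 0.056 (Col11a2) and -0.031 to 0.10 (Col27a1) at 6 months. Col27a1 was 0.025 at E14.5 without the 4 libraries that stand apart, and at 1 month 0.022 with quantile normalization and 0.0098 with samples centred on their median gene. The correlation of Col9a2 and Col9a3 was 0.014 in replicates 4 to 6. Of the counts of collagen genes called and the counts at the floor, 595 combinations of result and alternative stayed within 1.5 times and 19 did not. Among single genes and correlations, 1124 combinations kept their direction and side of the threshold, 31 changed sign as above, 22 lost it (Col10a1 from 1 to 6 months in WT, Col1a1 from 1 to 6 months in V986*/+, and the pairs Col4a3 and Col4a4, Col5a1 and Col5a2, and Col8a1 and Col8a2 within 1 replicate set or both) and 5 passed it (Col11a2 and Col27a1 at 12 months and Col9a2 at E14.5). At 12 months, the genotype comparison called 2 genes in 1 fit of all 48 samples and 2 in that fit with a replicate block, and 0 to 1 with single libraries left out (Col6a1, without V986*/+ replicate 1). The count of genes that rose from 1 to 6 months in V986*/+ was 2 with the replicate block and 1 to 3 with single libraries left out (Col14a1 without 1-month replicate 2 or 6-month replicate 3, and Col6a3 and Col9a2 without 6-month replicate 6). For the difference of steps, 0 to 1 genes were called from 6 to 12 months (Col17a1, 0.93 ± 0.25, adjusted p = 0.096, limma, without WT 12-month replicate 3) and 0 to 2 from E14.5 to 12 months with single libraries left out. Without the 4 libraries that stand apart, 2 genes were called between genotypes at E14.5, 1 in the difference from E14.5 to 1 month and 2 in that from E14.5 to 12 months. With a margin of 1.0, 2 combinations of gene and group were at the floor. The cause of these changes was not tested. The replicate numbers were not taken to pair samples, since the labels tie them to no litter or day and in no comparison were all 6 correlations of deviations between same-numbered samples above 0.1. They came closest between genotypes at E14.5, with a mean of 0.23 and 4 of 6 above 0.1, so that shared deviations at that age were not settled, and had means of -0.04 to 0.05 in the other comparisons. The block changed no other count by over 1.5 times. The one fit of all samples with a block was not run for the differences of steps. Without counts, the depth behind low values such as those of Col10a1 and Col6a6 is not known, and VST values compress their differences.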
